A study of Mus musculus with 23 samples.

Results

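The 35 genes described here are a set of interferon-induced genes, measured in sorted mouse mammary cells. They were taken by name (AW112010, Isg15, Ifit1 to Ifit3, Ifih1, Ddx58, Dhx58, Irf1, Irf7, Irf9, Stat2, Mx1, Mx2, Oas1a, Oas2, Oas3, Oasl1, Oasl2, Rsad2, Usp18, Bst2, Ifi35, Ifi44, Ifitm1 to Ifitm3, Gbp2, Gbp3, Gbp6, Gbp7, Xaf1, Parp9, Parp14 and Rtp4) and not by any measured value. All 35 were found in each of the 3 tables, which list 24391 genes for normal cells, 24511 for PY230 tumours and 24322 for C3-1-TAg tumours. Levels are RPKM, which corrects read numbers for the length of the gene and the size of the library.

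The 23 libraries formed 9 groups. Normal C57BL6J mammary glands gave adult basal, adult mature luminal and adult luminal progenitor cells, and, at embryonic day 18, fetal mammary stem cells (fMaSC), with 2 libraries each. PY230, a C57BL6J mammary tumour line, was grown as transplanted tumours in syngeneic mice, and these gave basal SOX10 high, luminal SOX10 high and luminal SOX10 low cells (2 libraries per group). C3-1-TAg mice, of the FVB strain, carry the SV40 T antigen under the C3(1) promoter, and their spontaneous tumours, all titled basal, gave 5 libraries of SOX10 high and 4 of SOX10 low cells. No group received interferon, an infection or another agent according to the labels, no age is stated for the adults, and the PY230 groups all come from 1 line. Which animal or tumour each library came from is not stated, so the p-values below measure the spread between libraries, which the design text calls biological replicates.

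Interferons are secreted signalling proteins that warn cells of a virus. Type I and type III interferons bind different receptors but both lead to a complex that holds STAT2 and IRF9 and binds the interferon-stimulated response element (ISRE) in promoters, while type II interferon acts mainly at the gamma-activated sequence (GAS). The induced genes encode RNA sensors, inhibitors of viral replication, transcription factors that extend the response, and brakes on it.

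Promoter sequences show which of these genes carry an ISRE-like motif. RefSeq promoters of the GRCm38.p6 build, 250 bases before to 50 bases after each start, were matched to 26 of the 35 genes, with 30 promoters among them. The letters GAAANNGAAA, searched on both strands, were found in 15 of the 30 promoters (50%), against 1131 of all 32851 promoters (3.44%). The letters TTCNNNGAA, a GAS-like motif which reads the same on both strands, were in 7 of the 30 (23.3%), against 8.30% of all promoters. Counted by gene, 15 of 26 members held GAAANNGAAA (57.7%), against 3.99% of all genes in that table. AW112010, Ifit2, Irf1, Irf7, Irf9, Oasl1, Oasl2, Ifi35, Ifi44, Ifitm1 and Xaf1 had no GAAANNGAAA match in these windows. Of these, Ifit2, Irf1 and Ifi35 held TTCNNNGAA.

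The 160 bases before the start are printed 5′ to 3′ for 7 genes with differing behaviour below, on the GRCm38.p6 build (the tables used mm9), with GAAANNGAAA matches on either strand in capitals. Isg15 lies at chr4:156200819-156200978 on the minus strand, Ifit1 at chr19:34640729-34640888 on the plus strand, Rsad2 at chr12:26456453-26456612 on the minus strand and Gbp2 at chr3:142620503-142620662 on the plus strand. Bst2 lies at chr8:71537473-71537632, Ifitm2 at chr7:140955962-140956121 and AW112010 at chr19:11050567-11050726, all on the minus strand.
Isg15: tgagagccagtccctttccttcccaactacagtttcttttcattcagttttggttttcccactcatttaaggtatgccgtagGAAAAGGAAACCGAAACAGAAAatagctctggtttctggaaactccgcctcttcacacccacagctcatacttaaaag
Ifit1: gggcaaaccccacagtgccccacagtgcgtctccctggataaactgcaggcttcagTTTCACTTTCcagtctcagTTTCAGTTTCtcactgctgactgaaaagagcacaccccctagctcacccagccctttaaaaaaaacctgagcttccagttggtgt
Rsad2: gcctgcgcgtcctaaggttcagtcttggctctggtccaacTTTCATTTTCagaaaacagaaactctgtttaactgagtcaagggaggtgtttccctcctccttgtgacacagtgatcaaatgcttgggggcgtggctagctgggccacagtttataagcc
Gbp2: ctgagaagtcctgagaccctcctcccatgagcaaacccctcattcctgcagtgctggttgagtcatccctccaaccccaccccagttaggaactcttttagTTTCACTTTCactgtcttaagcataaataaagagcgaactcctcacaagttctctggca
Bst2: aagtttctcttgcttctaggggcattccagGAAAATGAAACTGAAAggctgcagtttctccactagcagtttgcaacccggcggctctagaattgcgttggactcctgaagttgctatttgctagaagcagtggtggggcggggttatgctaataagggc
Ifitm2: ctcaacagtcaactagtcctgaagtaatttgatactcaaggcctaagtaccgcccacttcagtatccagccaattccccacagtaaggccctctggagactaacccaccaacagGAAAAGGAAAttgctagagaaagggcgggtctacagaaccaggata
AW112010: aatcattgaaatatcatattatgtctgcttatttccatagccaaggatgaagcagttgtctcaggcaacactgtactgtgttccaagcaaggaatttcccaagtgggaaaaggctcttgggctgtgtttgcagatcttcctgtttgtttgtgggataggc
Isg15 has 3 overlapping matches, whose first bases lie 78, 72 and 66 bases before the start, and Bst2 has 2 overlapping matches at 130 and 124 bases. Ifit1 has 2 separate matches at 104 and 85 bases, Rsad2 has 1 at 120, Gbp2 has 1 at 59 and Ifitm2 has 1 at 46. AW112010, the member with the largest range among normal cells, has none. A match describes the letters only and is not a measured binding site.

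Sox10 itself followed the labels, at 91.9 to 164 RPKM in the C3-1-TAg SOX10 high libraries against 2.10 to 40.9 RPKM in the SOX10 low libraries. In PY230 tumours it averaged 75.1 RPKM in basal SOX10 high and 84.0 RPKM in luminal SOX10 high cells, against 12.3 RPKM in luminal SOX10 low cells. Basal markers summed to 836 to 1752 RPKM in adult basal cells against at most 17.2 RPKM in the luminal populations. In the C3-1-TAg libraries, titled basal, luminal markers (1495 to 2551 RPKM) exceeded basal markers (96.5 to 1010) in each library. They also did so in adult basal cells, where luminal markers summed to 2999 and 1530 RPKM, and in fMaSC (2878 and 2805 against 823 and 812 RPKM). In PY230 basal SOX10 high cells basal markers were above luminal ones (2738 and 2374 against 349 and 534 RPKM). The 2 sums cover different genes, so their order alone does not tell basal from luminal cells. Each library had 10056 to 12504 genes at 1 RPKM or more, and read depth is unknown. C3-1-TAg SOX10 low replicate 1 stands apart by its immune markers, which summed to 2449 RPKM against at most 134 RPKM in the other C3-1-TAg libraries. Several members share stretches of 50 bases with other annotated genes (Gbp6 with 70.7% of its windows, Oas1a with 57.6%, Ifit3 with 51.2%, Ifitm2 with 48.5%), so their levels are uncertain.

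In normal tissue, interferon-induced genes were called higher in adult epithelial cells than in fMaSC for 14 of 35 members in basal, 25 in mature luminal and 22 in luminal progenitor cells. Of the members, 33 entered the test, with Mx1 and Oasl1 under 1 RPKM in all but at most 1 library. Isg15 entered only through luminal progenitors, Dhx58 and Oas3 only through mature luminal cells, and Oas2 and Gbp6 only through basal and mature luminal libraries. AW112010, Ifit1, Ifit3, Mx2, Oas1a, Rsad2, Usp18 and Gbp3 were also under 1 RPKM in both fMaSC libraries and entered only through adult cells. Calls of all these members as higher in those cells were thus favoured by the filter on low values. Without that filter the members called higher numbered 13 in basal, 23 in mature luminal and 23 in luminal progenitor cells. Of the 18300 genes then tested, 2974, 1883 and 1796 were called higher in the same order. Calls were made with limma at a Benjamini-Hochberg adjusted p under 0.05, and 3 members were called lower than in fMaSC in each population. The share of all 12553 tested genes called higher was 23.4% for basal, 14.7% for mature luminal and 15.0% for luminal progenitor cells, against 40%, 71.4% and 62.9% of the 35 members. The share of all genes called lower was 36.9%, 41.7% and 35.5% in the same order, against 8.57% of members in each. The median log2 difference of the 35 members was 0.75 in basal, 1.44 in mature luminal and 1.14 in luminal progenitor cells, where the median of all tested genes was -0.27, -0.53 and -0.39. These 3 comparisons use the same fMaSC libraries, so their counts are not independent of each other. Each library pools about 2000 sorted cells, and fewer cells that express a gene and less of its RNA per cell cannot be told apart.

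Ranked by group mean, mature luminal cells were highest for 21 of the 35 members and fMaSC were lowest for 26. Among all tested genes, mature luminal cells were highest for 16.0% and fMaSC lowest for 21.0%. Mx1, Ifitm1 and Ifitm2 had their highest mean in fMaSC. Ifit2, Ifitm3 and Gbp6 had theirs in adult basal cells, and the other 8 had theirs in luminal progenitors.

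**Figure D1:**
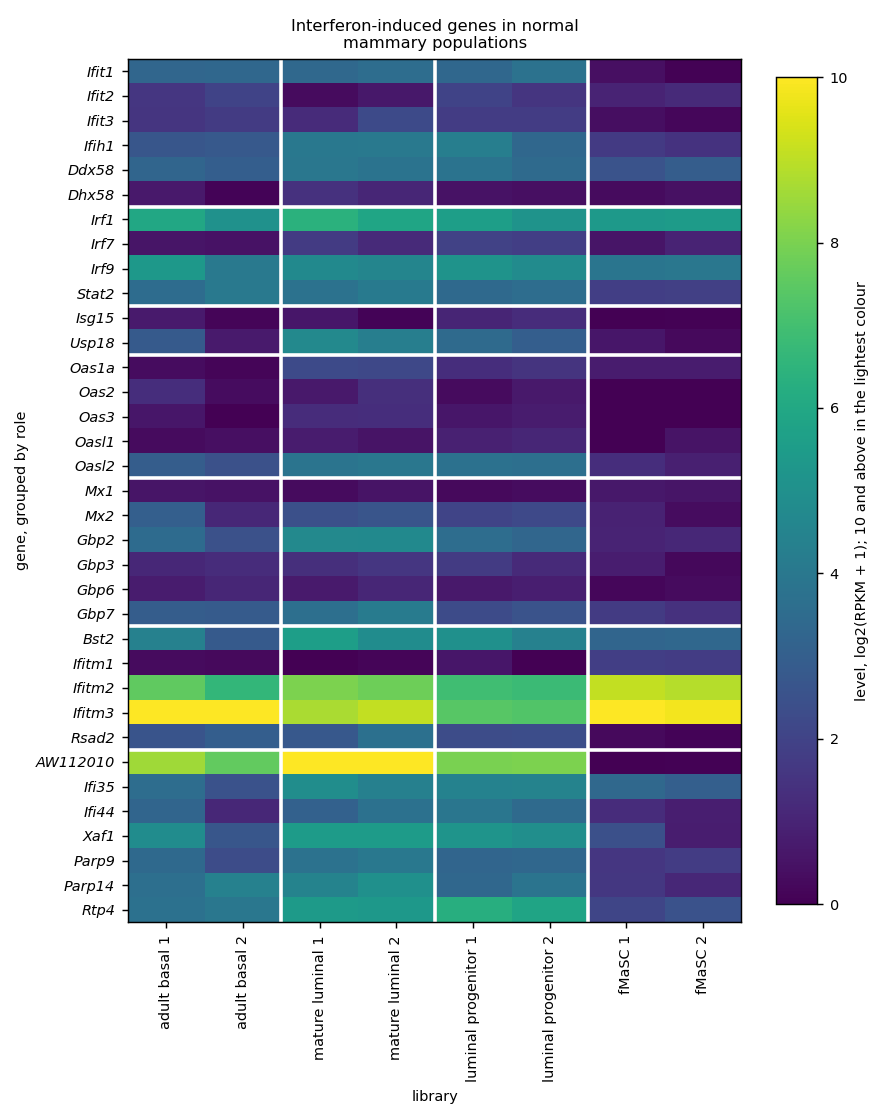
Level of each of the 35 genes (rows, grouped by role) in the 8 normal libraries (columns), as log2(RPKM + 1) with the colour scale capped at 10. Dark colours are low levels. The fMaSC columns are the darkest for most genes, Ifitm2 and Ifitm3 are light in every library, and AW112010 is light in the adult libraries and dark in fMaSC.

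AW112010, annotated as a long noncoding RNA and known to be interferon-inducible in mouse immune cells, had the largest differences of the set. It was at 379 and 194 RPKM in adult basal, 2477 and 3200.5 RPKM in mature luminal and 255 and 261 RPKM in luminal progenitor cells, against 0 and 0.0543 RPKM in fMaSC. No adult library came near the fMaSC values, and mature luminal cells stood above the other adult cells. On the log2(RPKM + 1) scale, which understates the change of genes near 0, the difference from fMaSC was 8.05 (SE 0.31, limma adjusted p = 1.28e-05) in basal, 11.42 (adjusted p = 6.31e-06) in mature luminal and 7.98 (adjusted p = 1.21e-05) in luminal progenitor cells. AW112010 entered the test through its adult levels alone, so a difference from fMaSC was favoured. None of its 50-base windows was shared with another gene.

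Among the antiviral effectors, Isg15, a ubiquitin-like protein that is attached to other proteins, was low throughout, at 0.665 and 0.114 RPKM in adult basal, 0.537 and 0.0701 RPKM in mature luminal and 1.03 and 1.40 RPKM in luminal progenitor cells, against 0 and 0.0464 RPKM in fMaSC. Only the luminal progenitor libraries passed 1 RPKM. Ifit1, which binds viral RNA that lacks host cap marks, was at 8.95 and 9.07 RPKM in adult basal, 9.48 and 11.0 RPKM in mature luminal and 9.17 and 12.6 RPKM in luminal progenitor cells, against 0.318 and 0.0461 RPKM in fMaSC. The adult libraries lay close together and all above fMaSC, by a log2 difference of 3.09 in basal (SE 0.25, limma adjusted p = 9.83e-05), 3.26 in mature luminal (adjusted p = 5.68e-05) and 3.32 in luminal progenitor cells (adjusted p = 7.19e-05). Rsad2 encodes viperin, which makes a chain-terminating nucleotide, and read 4.99 and 6.93 RPKM in adult basal, 5.67 and 11.8 RPKM in mature luminal and 4.05 and 4.15 RPKM in luminal progenitor cells, against 0.179 and 0.0657 RPKM in fMaSC. Its difference from fMaSC was 2.62 in basal (limma adjusted p = 5.82e-04) and 3.04 in mature luminal cells (adjusted p = 2.83e-04). Ifit1 and Rsad2 entered the test through their adult levels alone, so a difference from fMaSC was favoured. On this length-scaled measure Ifit1 stood above Isg15 in every adult library, and both promoters hold the ISRE-like letters.

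Usp18, the protease that removes ISG15 and damps the type I receptor, was at 6.15 and 0.646 RPKM in adult basal, 25.0 and 18.6 RPKM in mature luminal and 9.87 and 6.98 RPKM in luminal progenitor cells, against 0.534 and 0.188 RPKM in fMaSC. Both luminal populations lay above fMaSC, with log2 differences of 4.06 in mature luminal (limma adjusted p = 0.00122) and 2.79 in luminal progenitor cells (adjusted p = 0.00799, and 0.054 without luminal progenitor replicate 1). The adult basal libraries disagreed by far more than those of the other groups. Xaf1, a pro-apoptotic protein, showed the same spread, at 27.8 and 5.44 RPKM in adult basal, 44.0 and 43.9 RPKM in mature luminal and 35.1 and 29.7 RPKM in luminal progenitor cells, against 4.41 and 0.726 RPKM in fMaSC. Its difference from fMaSC was 3.88 in mature luminal (limma adjusted p = 0.00334) and 3.44 in luminal progenitor cells (adjusted p = 0.00676). In basal cells it was 2.16 (adjusted p = 0.0370), which was 1.07 (0.141) without basal replicate 1 and 1.33 (0.206) without fMaSC replicate 2.

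In adult basal replicate 1, where Usp18 and Xaf1 were higher than in replicate 2, so were Mx2 (7.07 against 1.17 RPKM) and Ifi44 (8.49 against 1.18 RPKM). The 17 immune cell markers summed to 87.8 RPKM in that library and 17.7 RPKM in basal replicate 2, largely through the macrophage lysozyme Lyz2 (57.0 and 0.702 RPKM). In mature luminal cells the sums were 17.0 and 19.1 RPKM, in luminal progenitors 59.7 and 63.5 RPKM and in fMaSC 17.4 and 22.3 RPKM. The leukocyte marker Ptprc was at most 0.364 RPKM in the normal libraries and listed at 0 in both fMaSC and 1 mature luminal library, and Adgre1, Cd3e and Nkg7 were listed at 0 in all adult libraries. The median log2 difference of the tested members from fMaSC was 0.82 with both basal libraries, 0.57 without basal replicate 1 and 1.29 without basal replicate 2. For all tested genes it was -0.27, -0.35 and -0.27 in the same order. The part of immune markers in the spread between the basal libraries was not tested.

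Of the cytoplasmic RNA sensors, Ifih1 (MDA5) was at 5.34 and 6.02 RPKM in adult basal, 15.0 and 15.7 RPKM in mature luminal and 18.4 and 9.01 RPKM in luminal progenitor cells, against 2.28 and 1.73 RPKM in fMaSC. All adult libraries exceeded fMaSC, and the log2 difference was 2.45 in mature luminal (limma adjusted p = 6.55e-04) and 2.22 in luminal progenitor cells (adjusted p = 0.00126). Ddx58 (RIG-I) was at 4.95 RPKM or more in every normal library, whereas Dhx58 (LGP2) stayed between 0.0643 and 1.66 RPKM. In fMaSC, Ddx58 stood at 4.95 and 6.63 RPKM in the same libraries in which Ifit1 was at most 0.318 RPKM.

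The transcription factors covered a wide range of levels, with Irf1 highest and Irf7 lowest by group mean. Irf1, which type II interferon induces strongly, was at 62.8 and 32.2 RPKM in adult basal, 81.8 and 57.7 RPKM in mature luminal and 47.8 and 34.4 RPKM in luminal progenitor cells, against 41.1 and 43.8 RPKM in fMaSC. The mature luminal libraries lay above fMaSC, and the basal and luminal progenitor libraries fell on either side of it. Stat2, a subunit of the ISRE-binding complex, was at 10.5 and 15.7 RPKM in adult basal, 12.7 and 16.2 RPKM in mature luminal and 9.63 and 10.8 RPKM in luminal progenitor cells, against 2.64 and 2.69 RPKM in fMaSC. Every adult library lay above fMaSC, with differences of 1.92 in basal (limma adjusted p = 6.57e-04), 2.07 in mature luminal (adjusted p = 4.49e-04) and 1.61 in luminal progenitor cells (adjusted p = 0.00171). Irf7, the factor that amplifies type I interferon production, read 0.490 and 0.386 RPKM in adult basal, 2.37 and 1.31 RPKM in mature luminal and 2.96 and 2.66 RPKM in luminal progenitor cells, against 0.481 and 1.00 RPKM in fMaSC. Only luminal cells lay above the fetal libraries, by 1.14 in luminal progenitors (adjusted p = 0.00823, and 0.094 without fMaSC replicate 1).

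The oligoadenylate synthetases and their relatives, which activate RNase L or bind sensors, were low or moderate. Oas2 was at 1.49 and 0.243 RPKM in adult basal, 0.597 and 1.57 RPKM in mature luminal and 0.216 and 0.608 RPKM in luminal progenitor cells, and listed at 0 in both fMaSC libraries, as was Oas3. Oasl2, of the same family, was at 6.80 and 4.57 RPKM in adult basal, 13.4 and 14.6 RPKM in mature luminal and 12.4 and 11.7 RPKM in luminal progenitor cells, against 1.50 and 0.859 RPKM in fMaSC. Its groups did not overlap with fMaSC, and the differences were 1.61 in basal (limma adjusted p = 0.00163), 2.80 in mature luminal (adjusted p = 1.34e-04) and 2.59 in luminal progenitor cells (adjusted p = 2.46e-04). Oas1a went the other way in basal cells, at 0.263 and 0.0978 RPKM in adult basal, 3.77 and 3.48 RPKM in mature luminal and 1.45 and 1.80 RPKM in luminal progenitor cells, against 0.687 and 0.715 RPKM in fMaSC. It was lower in basal cells by 0.53 (adjusted p = 0.0431, but 0.095 without adult basal replicate 2, 0.204 without fMaSC replicate 1 and 0.223 without fMaSC replicate 2) and higher in mature luminal cells by 1.44 (adjusted p = 6.11e-04).

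The interferon-induced GTPases Gbp2 and Gbp7, which attack the vacuoles of intracellular pathogens, were both lowest in fMaSC. Gbp2 was at 10.2 and 4.61 RPKM in adult basal, 24.9 and 25.8 RPKM in mature luminal and 10.9 and 8.73 RPKM in luminal progenitor cells, against 1.00 and 1.18 RPKM in fMaSC. The differences from fMaSC were 1.92 in basal (limma adjusted p = 0.00225), 3.66 in mature luminal (adjusted p = 1.23e-04) and 2.36 in luminal progenitor cells (adjusted p = 0.00109), and mature luminal cells stood clear of the rest. Gbp7 was at 6.67 and 6.27 RPKM in adult basal, 11.7 and 16.7 RPKM in mature luminal and 3.88 and 4.83 RPKM in luminal progenitor cells, against 2.33 and 1.71 RPKM in fMaSC. It exceeded fMaSC by 1.31 in basal (limma adjusted p = 0.00371) and by 2.32 in mature luminal cells (adjusted p = 2.84e-04), and 12.7% of its windows are shared with other genes.

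Bst2 encodes tetherin, a membrane protein that holds budding virions at the cell surface, and was at 19.8 and 6.04 RPKM in adult basal, 47.2 and 28.2 RPKM in mature luminal and 31.5 and 19.9 RPKM in luminal progenitor cells, against 8.48 and 9.16 RPKM in fMaSC. The basal libraries lay on either side of fMaSC, and the mature luminal difference of 1.93 (limma adjusted p = 0.0144) missed the threshold without mature luminal replicate 1 (0.092), fMaSC replicate 1 (0.065) or fMaSC replicate 2 (0.056). Rtp4, a chaperone of membrane receptors, was at 12.3 and 14.7 RPKM in adult basal, 42.5 and 39.2 RPKM in mature luminal and 75.2 and 56.0 RPKM in luminal progenitor cells, against 3.28 and 4.73 RPKM in fMaSC. It was highest in luminal progenitors, where it exceeded fMaSC by 3.73 (SE 0.24, limma adjusted p = 3.75e-05). Parp14, a mono-ADP-ribosyltransferase, read 11.5 and 20.0 RPKM in adult basal, 21.5 and 31.0 RPKM in mature luminal and 9.13 and 13.2 RPKM in luminal progenitor cells, against 2.06 and 1.19 RPKM in fMaSC, a difference of 2.65 in basal cells (adjusted p = 6.72e-04) and 3.37 in mature luminal cells (adjusted p = 2.17e-04).

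The Ifitm genes encode small membrane proteins that stop viruses at endosomes, and Ifitm1 and Ifitm2 were called lower in each adult population than in fMaSC with the values as deposited. Ifitm1 was at 0.222 and 0.208 RPKM in adult basal, 0 and 0.0920 RPKM in mature luminal and 0.529 and 0 RPKM in luminal progenitor cells, against 2.61 and 2.45 RPKM in fMaSC. Both fMaSC libraries lay above every adult library, and the difference was -1.54 in basal (limma adjusted p = 9.80e-04), -1.76 in mature luminal (adjusted p = 5.29e-04) and -1.51 in luminal progenitor cells (adjusted p = 0.00128). Ifitm1 was at most 0.529 RPKM in adult cells and entered the test through its fMaSC level alone, so it had to differ, and it could not be tested without either fMaSC library. Ifitm2 was at 186 and 97.1 RPKM in adult basal, 263 and 219 RPKM in mature luminal and 122 and 111 RPKM in luminal progenitor cells, against 539 and 478 RPKM in fMaSC. It too was highest in fMaSC, by -1.91 in basal (adjusted p = 0.00140) and -2.11 in luminal progenitor cells (adjusted p = 0.00109). In mature luminal cells it differed by -1.08 (adjusted p = 0.0182), which did not hold with median-of-ratios scaling (-0.56, adjusted p = 0.138) or without mature luminal replicate 2, fMaSC replicate 1 or fMaSC replicate 2 (adjusted p = 0.064 to 0.1001).

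Ifitm3 was the most abundant member in adult basal cells, at 1661 and 1255 RPKM, with 428 and 547 RPKM in mature luminal and 167 and 154 RPKM in luminal progenitor cells, against 1009 and 916 RPKM in fMaSC. No 2 of the 4 groups overlapped. Against fMaSC it was lower by 2.58 in luminal progenitors (limma adjusted p = 1.20e-04). In mature luminal cells it was lower by 0.99 (adjusted p = 0.00699), and this was not past the threshold with median-of-ratios scaling (-0.47, adjusted p = 0.115) or without fMaSC replicate 1 (-0.92, adjusted p = 0.064). Against fMaSC the basal difference in Ifitm3 did not pass the test. The members not given by library here (Ifit3, Irf9, Mx1, Mx2, Oas3, Oasl1, Ifi44, Gbp3, Gbp6 and Parp9) lay between 0 and 39.0 RPKM over the normal libraries, with Irf9 the highest of them.

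**Figure D2:**
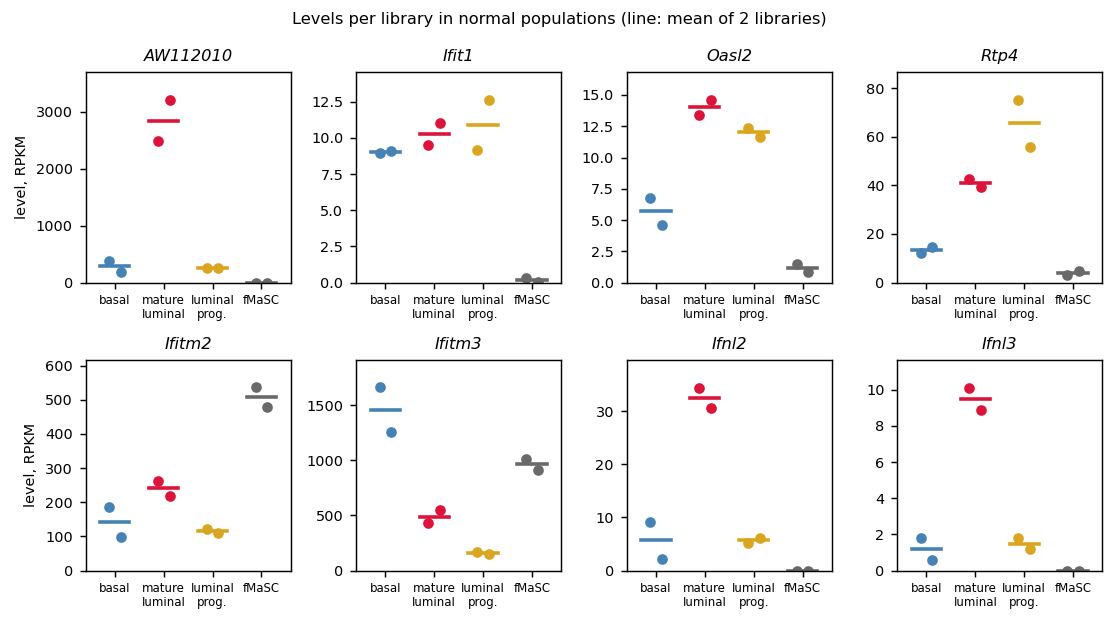
RPKM of 6 members and of the type III interferons Ifnl2 and Ifnl3 in each of the 8 normal libraries, with 1 point per library and a line at the mean of the 2 libraries of a group. AW112010, Ifit1, Oasl2 and Rtp4 lie near 0 in fMaSC, Ifitm2 is highest there, and Ifnl2 and Ifnl3 are listed at 0 in fMaSC and highest in mature luminal cells.

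Leaving out single libraries shows which of these calls hold, with the group left at 1 library assumed to vary like the other groups of the table. All 4 such fits kept 10 of the 17 calls in basal cells (among them AW112010, Ifit1, Stat2, Oasl2, Rsad2, Gbp2, Gbp7, Parp14 and Rtp4 higher), 14 of 28 in mature luminal cells and 12 of 25 in luminal progenitors. Without fMaSC replicate 2 fewer members were called in each population, and in luminal progenitors also without fMaSC replicate 1 or luminal progenitor replicate 1. Fewer of all genes were called in those fits as well. Quantile normalization moved the median of all genes by more than 0.1, to 0.02 in basal and 0.04 in luminal progenitor cells, with 3809 higher and 3718 lower genes in basal (2941 and 4628 as deposited), 3246 and 3346 in mature luminal (1849 and 5231) and 3142 and 3089 in luminal progenitor cells (1888 and 4461). The members then called numbered 21 higher and 2 lower in basal, 28 higher and 3 lower in mature luminal, and 27 higher and 3 lower in luminal progenitor cells.

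Among the adult populations themselves, 2 of the 35 interferon-induced genes were called higher and 15 lower in basal than in mature luminal cells, where 28.8% of all genes were called higher and 19.8% lower. The largest differences were AW112010 (-3.37, limma adjusted p = 2.56e-04), Usp18 (-2.72, adjusted p = 0.00980), Oas1a (-1.97, adjusted p = 3.08e-04), Gbp2 (-1.73, adjusted p = 0.00523) and Bst2 (-1.63, adjusted p = 0.0326), whose values are given above. The members higher in basal cells were Ifitm3 (1.57, adjusted p = 0.00139) and Ifit2, an RNA binder of the Ifit1 family, at 2.02 and 3.08 RPKM in adult basal cells against 0.213 and 0.578 RPKM in mature luminal cells (1.34, adjusted p = 0.00580). Usp18 missed the threshold without mature luminal replicate 1 (0.065), as did Ifit2 (0.051), and Bst2 missed it without basal replicate 2 (0.091), mature luminal replicate 1 (0.179) or mature luminal replicate 2 (0.055). Fewer members were called without mature luminal replicate 1 or mature luminal replicate 2, and calls on all genes also changed when single libraries were left out.

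Against luminal progenitors, adult basal cells had 1 member higher and 6 lower, with 21.0% of all genes called higher and 14.5% lower. Ifitm3 was higher by 3.16 (limma adjusted p = 1.32e-04). Rtp4 (-2.19, adjusted p = 7.93e-04), Irf7 (-1.40, adjusted p = 0.00588) and Oas1a (-1.15, adjusted p = 0.00397) were lower in basal cells, and these calls held without any 1 library. Ifi35, a partner of other interferon-induced proteins, was at 10.8 and 4.71 RPKM in adult basal cells against 20.4 and 21.0 RPKM in luminal progenitors (-1.40, adjusted p = 0.0236), and missed the threshold without luminal progenitor replicate 1 (0.094) or replicate 2 (0.103). The member count was 16 without basal replicate 1, the library with more Lyz2, and 4 without luminal progenitor replicate 1, where the calls on all genes numbered 5994 and 2623 against 4455 with all libraries.

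Mature luminal cells had 7 members higher and 1 lower than luminal progenitors, where 8.63% of all genes were called higher and 13.4% lower. AW112010 (3.44, limma adjusted p = 8.77e-04) and Ifitm3 (1.59, adjusted p = 0.00362) were higher in mature luminal cells and held in all 4 fits without a library. Gbp7 (1.49, adjusted p = 0.00771) missed the threshold without mature luminal replicate 2 (0.066) or luminal progenitor replicate 1 (0.056), and Gbp2 (1.29, adjusted p = 0.0340) without any 1 of the 4 (0.102 to 0.155). Ifit2 was lower, at 0.213 and 0.578 RPKM in mature luminal cells against 2.98 and 1.90 RPKM in luminal progenitors (-1.30, adjusted p = 0.0151), and missed the threshold without mature luminal replicate 1 (0.104), mature luminal replicate 2 (0.056) or luminal progenitor replicate 1 (0.091). Fewer members were called in each of the 4 fits without a library, and fewer of all genes were called in each as well. After quantile normalization the genes called higher and lower numbered 2964 and 3389 between basal and mature luminal cells (3611 and 2488 as deposited), 2242 and 2339 between basal cells and luminal progenitors (2641 and 1814), and 1458 and 1490 between mature luminal cells and luminal progenitors (1083 and 1687).

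Of the 6 interferon ligand genes listed (Ifnb1, Ifne, Ifnk, Ifng, Ifnl2 and Ifnl3), the type III genes Ifnl2 and Ifnl3 passed the filter on low values. Ifnl2, a type III interferon, was at 9.11 and 2.22 RPKM in adult basal, 34.3 and 30.5 RPKM in mature luminal and 5.23 and 6.21 RPKM in luminal progenitor cells, and Ifnl3 was at 1.80 and 0.567 RPKM, 10.1 and 8.88 RPKM, and 1.79 and 1.19 RPKM in the same groups. Both were listed at 0 in both fMaSC libraries, and they share 31.7% and 38.8% of their windows with each other or another gene, so reads may be split between them. Ifnl2 in mature luminal cells exceeded basal cells (basal minus mature luminal -2.55, limma adjusted p = 0.00469) and luminal progenitors (mature luminal minus progenitor 2.32, adjusted p = 0.0155). Ifnb1, a type I interferon, was at most 0.271 RPKM in the normal libraries, and the type II interferon Ifng was listed at 0.

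Of 11 genes of the interferon receptors and their signalling, 2 were higher and 3 lower in adult basal cells than in fMaSC (23.4% and 36.9% of all genes), 2 higher and 2 lower in mature luminal cells (14.7% and 41.7%), and 5 higher and 1 lower in luminal progenitors (15.0% and 35.5%). The type I receptor chain Ifnar1 passed as lower in the adult cells with the values as deposited, at 9.36 and 10.8 RPKM in basal, 9.42 and 10.0 RPKM in mature luminal and 12.4 and 10.2 RPKM in luminal progenitor cells, against 17.1 and 19.3 RPKM in fMaSC. The kinase Jak2 was higher, at 35.6 and 30.6 RPKM in basal, 94.8 and 115 RPKM in mature luminal and 32.6 and 30.6 RPKM in luminal progenitor cells, against 12.2 and 12.3 RPKM in fMaSC.

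A separate list of 40 other interferon-induced genes, 33 of them tested, gave 17 higher and 2 lower in adult basal cells than in fMaSC, 24 higher and 2 lower in mature luminal cells, and 22 higher in luminal progenitors. Of all genes tested, 23.4% were higher and 36.9% lower in basal, 14.7% and 41.7% in mature luminal, and 15.0% and 35.5% in luminal progenitor cells. These shares also apply to the sensing genes and negative regulators below. The immunoproteasome subunit Psmb8 was at 53.5 and 13.7 RPKM in adult basal, 163 and 117 RPKM in mature luminal and 57.2 and 55.8 RPKM in luminal progenitor cells, against 4.16 and 5.10 RPKM in fMaSC. The antiviral RNA binder Zc3hav1 was at 23.5 and 37.1 RPKM, 27.1 and 33.1 RPKM, and 24.9 and 20.0 RPKM in the same adult groups, against 0.907 and 0.946 RPKM in fMaSC. Among 14 nucleic acid sensing genes, 9 of them tested, at most 2 were higher and at most 3 lower in any adult population against fMaSC. Of 8 negative regulators, 7 of them tested, 4 were higher and 1 lower in basal and 2 higher and 1 lower in mature luminal cells than in fMaSC (limma, adjusted p under 0.05). In luminal progenitors 0 were called either way, and at an unadjusted p under 0.05 the limma counts were 1 higher and 0 lower.

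**Figure D3:**
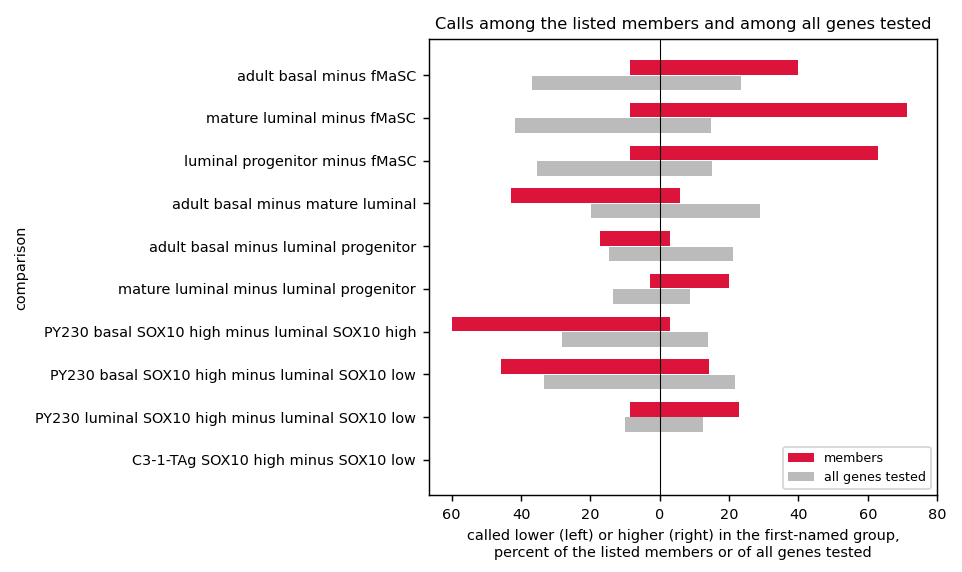
Percent of the 35 members (red) and of all genes tested (grey) called lower or higher by limma at an adjusted p under 0.05, for each of the 10 comparisons. In adult cells against fMaSC the members were called higher more often than all genes, in PY230 basal SOX10 high against luminal cells they were called lower more often, and in C3-1-TAg tumours no member was called.

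In the PY230 tumours, interferon-induced genes were called lower in basal SOX10 high cells for 21 of 35 members against luminal SOX10 high cells (13 with median-of-ratios scaling) and 16 of 35 against luminal SOX10 low cells. All 35 members entered the test among 13136 genes. Against luminal SOX10 high cells, 1 member was higher and 21 lower in basal SOX10 high cells, while 13.8% of all genes were called higher and 28.2% lower. Against luminal SOX10 low cells, 5 were higher and 16 lower, while 21.8% of all genes were called higher and 33.4% lower. The median difference of the 35 members was -0.76 against luminal SOX10 high and -0.65 against luminal SOX10 low cells, with -0.21 and -0.16 for all tested genes. These comparisons use the same basal libraries. By group mean, basal SOX10 high cells were lowest for 22 of 35 members, and lowest for 52.8% of all tested genes.

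AW112010 was again the widest, at 20.3 and 56.7 RPKM in basal SOX10 high, 199 and 517 RPKM in luminal SOX10 high and 1162 and 973 RPKM in luminal SOX10 low cells. The 3 groups did not overlap, and basal cells were lower by 3.20 than luminal SOX10 high (SE 0.56, limma adjusted p = 0.00505) and by 4.92 than luminal SOX10 low cells (adjusted p = 5.13e-04). Oas2 was at 2.10 and 2.94 RPKM in basal SOX10 high, 18.2 and 24.3 RPKM in luminal SOX10 high and 32.1 and 36.5 RPKM in luminal SOX10 low cells. Oas3 ran in the same order, at 0.762 and 0.656 RPKM, 2.77 and 4.66 RPKM, and 8.39 and 8.65 RPKM. For Oas2 the basal difference was -2.66 from luminal SOX10 high (SE 0.19, limma adjusted p = 1.54e-04) and -3.33 from luminal SOX10 low cells (adjusted p = 4.44e-05), and for Oas3 it was -1.44 (adjusted p = 0.00268) and -2.48 (adjusted p = 1.72e-04).

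Ifih1 was at 1.57 and 2.14 RPKM in basal SOX10 high, 8.90 and 8.17 RPKM in luminal SOX10 high and 9.03 and 9.86 RPKM in luminal SOX10 low cells. Basal cells were apart from both luminal groups, by -1.75 (limma adjusted p = 3.83e-04) and -1.88 (adjusted p = 1.63e-04). Usp18 was at 6.25 and 5.66 RPKM in basal SOX10 high, 10.5 and 14.4 RPKM in luminal SOX10 high and 26.8 and 23.9 RPKM in luminal SOX10 low cells, with basal cells lower than luminal SOX10 low by 1.92 (adjusted p = 1.96e-04). Parp9, an ADP-ribosyltransferase that works with Dtx3l, also separated basal from luminal cells, at 6.31 and 6.70 RPKM in basal SOX10 high against 18.2 and 18.4 RPKM in luminal SOX10 high and 22.0 and 22.2 RPKM in luminal SOX10 low cells.

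Other members with lower basal levels had smaller differences. Stat2 was at 25.0 and 17.7 RPKM in basal SOX10 high, 33.1 and 30.7 RPKM in luminal SOX10 high and 34.3 and 39.9 RPKM in luminal SOX10 low cells. Bst2 was at 59.2 and 43.4 RPKM in basal SOX10 high, 121 and 97.3 RPKM in luminal SOX10 high and 94.2 and 68.0 RPKM in luminal SOX10 low cells. Basal cells lay below both luminal groups in Stat2 and Bst2, but no call on either gene held in every fit without a library. Against luminal SOX10 high cells Stat2 (limma adjusted p = 0.0434) read 0.201 without basal replicate 2, 0.132 without luminal SOX10 high replicate 1 and 0.074 without luminal SOX10 high replicate 2, and Bst2 (adjusted p = 0.00966) read 0.063 without basal replicate 2. Against luminal SOX10 low cells Stat2 (limma adjusted p = 0.0103) read 0.052 without basal replicate 2 and 0.071 without luminal SOX10 low replicate 2, and Bst2 (0.0458) read 0.234 without basal replicate 2 and 0.251 without luminal SOX10 low replicate 1. Irf1 was at 95.4 and 65.7 RPKM in basal SOX10 high, 111 and 99.6 RPKM in luminal SOX10 high and 132 and 175 RPKM in luminal SOX10 low cells. Gbp2 was at 39.7 and 17.3 RPKM, 41.8 and 40.1 RPKM, and 46.8 and 45.2 RPKM in the same groups, with the basal libraries further apart than the luminal ones. The members not given by library here (Ddx58, Dhx58, Irf9, Mx1, Mx2, Oas1a, Rsad2, Ifi35, Ifi44, Gbp6, Xaf1, Parp14 and Rtp4) lay between 1.05 and 55.7 RPKM, from Gbp6 to Ifi35.

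Among the members with their highest mean in luminal SOX10 high cells, Oasl1, Ifi44, Gbp3 and Gbp6 were called higher there than in either other group. No such call on Ifi44 or Gbp6 held in every fit without a library, and the other members of this set are given here. Oasl1, which blocks translation of Irf7 in mice, was at 1.69 and 1.28 RPKM in basal SOX10 high, 10.2 and 5.22 RPKM in luminal SOX10 high and 1.47 and 2.27 RPKM in luminal SOX10 low cells, and the basal minus luminal SOX10 high difference was -1.75 (limma adjusted p = 0.00456). Gbp3, a GTPase of the Gbp2 family, was at 11.7 and 7.96 RPKM in basal SOX10 high, 28.1 and 17.7 RPKM in luminal SOX10 high and 5.86 and 6.14 RPKM in luminal SOX10 low cells. Both genes were above the other groups in each luminal SOX10 high library, but without single libraries Oasl1 missed the threshold against luminal SOX10 low cells (limma adjusted p = 0.056 to 0.079 in 3 fits) and Gbp3 against basal cells (0.073 without basal replicate 2). Isg15 was at 32.3 and 21.9 RPKM in basal SOX10 high, 53.2 and 35.0 RPKM in luminal SOX10 high and 30.4 and 34.7 RPKM in luminal SOX10 low cells, Irf7 at 24.2 and 17.8 RPKM, 50.5 and 25.4 RPKM, and 17.1 and 18.9 RPKM, and Oasl2 at 18.8 and 11.2 RPKM, 36.5 and 25.9 RPKM, and 23.2 and 26.2 RPKM. Isg15 and Irf7 passed the test in no PY230 comparison, and Oasl2 passed between basal and luminal SOX10 high cells (-1.03, limma adjusted p = 0.0200; 0.092 without basal replicate 2 or luminal SOX10 high replicate 1). In these the luminal SOX10 high libraries were themselves apart, and replicate 1 held the highest value of 16 of the 35 members (27.3% of all tested genes were highest there).

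The Ifit genes were lowest in luminal SOX10 low cells. Ifit1 was at 7.53 and 4.92 RPKM in basal SOX10 high, 8.05 and 5.24 RPKM in luminal SOX10 high and 2.24 and 3.11 RPKM in luminal SOX10 low cells. Ifit2 was at 5.16 and 3.72 RPKM, 6.47 and 3.15 RPKM, and 0.596 and 0.709 RPKM, and Ifit3, which forms a complex with IFIT1 in human cells, at 7.88 and 4.20 RPKM, 13.5 and 5.45 RPKM, and 2.18 and 1.94 RPKM. The luminal SOX10 low libraries did not overlap with either other group for these genes. Ifit2 in basal SOX10 high cells exceeded luminal SOX10 low by 1.71 (limma adjusted p = 0.00295), and the Ifit1 difference of 0.96 (adjusted p = 0.0198) missed the threshold without basal replicate 1 (0.113) or luminal SOX10 low replicate 1 (0.097). The type I interferon Ifnb1 was at 0.199 and 0.217 RPKM in basal SOX10 high, 1.33 and 0.538 RPKM in luminal SOX10 high and 0 and 0.0870 RPKM in luminal SOX10 low cells.

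Luminal SOX10 high cells had 8 members higher and 3 lower than luminal SOX10 low cells, with 12.6% of all genes called higher and 10.0% lower. Gbp3 (1.74, limma adjusted p = 0.00851) was higher in all fits without a library. The Ifit2 (1.75, adjusted p = 0.0128), Ifit3 (1.66, adjusted p = 0.0328) and Oasl1 (1.56, adjusted p = 0.0182) differences missed the threshold in at least 2 such fits, with Ifit2 at 0.052 and 0.057 without luminal SOX10 low replicate 1 and replicate 2. Without luminal SOX10 high replicate 1 Ifit3 read 0.114 and Oasl1 0.061, without luminal SOX10 low replicate 1 they read 0.096 and 0.079, and without luminal SOX10 low replicate 2 they read 0.124 and 0.056. Oas3 was lower by 1.04 (adjusted p = 0.0213, and 0.065, 0.086 and 0.108 without those same libraries). Fewer members were called without luminal SOX10 high replicate 1, luminal SOX10 low replicate 1 or luminal SOX10 low replicate 2. Calls on all genes also changed when single libraries were left out, so these member counts alone do not tell the members from other genes.

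Of the Ifitm genes, Ifitm3 was called higher in basal SOX10 high cells, and Ifitm1 and Ifitm2 did not pass the test. Ifitm3 was at 887 and 637 RPKM in basal SOX10 high, 379 and 229 RPKM in luminal SOX10 high and 206 and 291 RPKM in luminal SOX10 low cells. Basal libraries lay above all luminal ones, by 1.35 over luminal SOX10 high (limma adjusted p = 0.0141, and 0.089 without basal replicate 1) and 1.61 over luminal SOX10 low cells (adjusted p = 0.00466). Ifitm1 was at 1.48 and 1.05 RPKM in basal SOX10 high, 0.509 and 0.751 RPKM in luminal SOX10 high and 0.373 and 0.793 RPKM in luminal SOX10 low cells, also without overlap. Ifitm2 was between 138 and 184 RPKM in every library. Gbp7 was at 5.73 and 3.86 RPKM in basal SOX10 high, 4.97 and 5.15 RPKM in luminal SOX10 high and 3.09 and 3.57 RPKM in luminal SOX10 low cells.

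**Figure D4:**
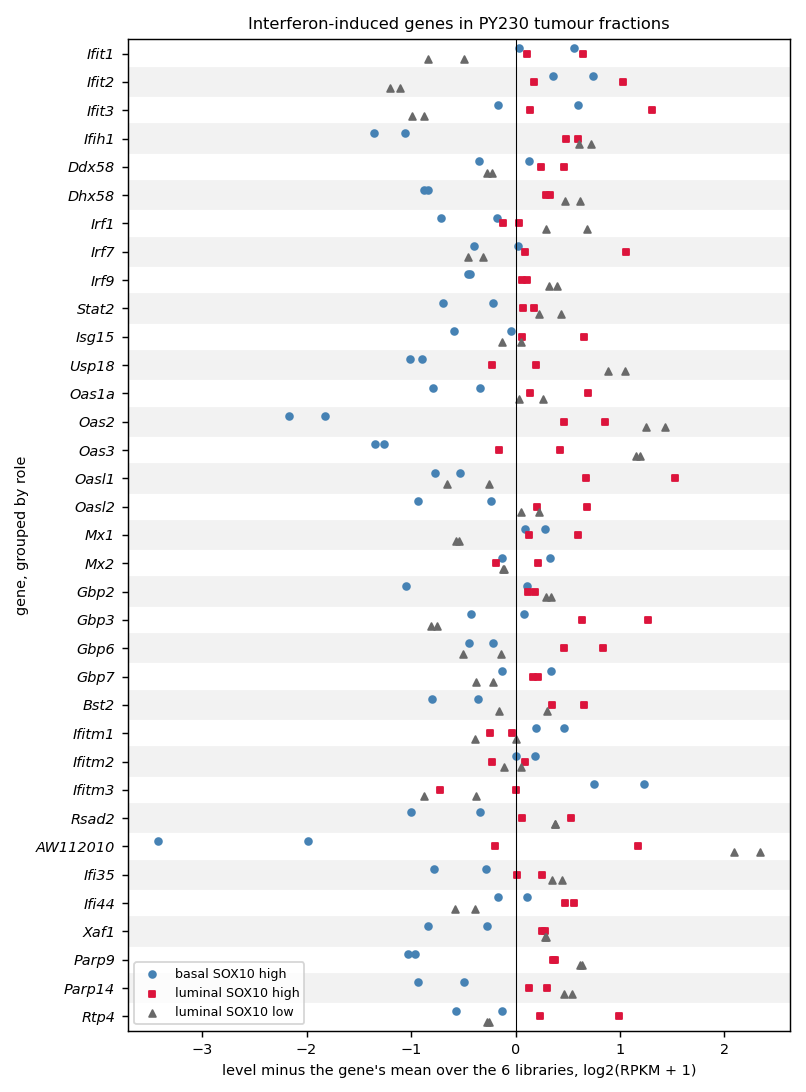
Level of each of the 35 members in the 6 PY230 libraries as log2(RPKM + 1) minus that gene's mean over the 6, with 1 point per library and colours for the 3 groups. The basal SOX10 high points lie left of 0 for AW112010, Oas2 and Oas3 and right of 0 for Ifitm3, while the luminal SOX10 low points lie left of 0 for Ifit1, Ifit2 and Ifit3.

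Of the calls in basal SOX10 high cells, those on 9 of 22 members against luminal SOX10 high (AW112010, Ifih1, Dhx58, Oas2, Oas3, Oasl1, Usp18, Parp9 and Parp14, all lower) and on 12 of 21 against luminal SOX10 low cells held in every fit without a library. Against luminal SOX10 high cells fewer members were called without basal replicate 2 than with all libraries. Calls on all genes also changed when single libraries were left out. Median-of-ratios scaling gave 14 members (1 higher, 13 lower). It changed the calls on all genes to 2352 higher and 2426 lower (1814 and 3699 as deposited) and their median to -0.03. Against luminal SOX10 low cells that scaling gave 8 members higher and 14 lower (5 and 16 as deposited), counts not set beside all genes here. The 17 immune markers summed to 83.0 and 115.5 RPKM in basal SOX10 high, 89.6 and 126 RPKM in luminal SOX10 high and 57.1 and 32.7 RPKM in luminal SOX10 low cells. Of 10 tested immune markers, 7 were higher in basal SOX10 high (21.8% of all genes) and 5 in luminal SOX10 high (12.6% of all genes) than in luminal SOX10 low cells. In luminal SOX10 low replicate 2 Cd3d, Cd3e and Nkg7 were listed at 0. The part of immune cells in the Ifit differences was not tested.

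Of the 40 other interferon-induced genes, 2 were higher and 21 lower in basal SOX10 high than in luminal SOX10 high cells (13.8% and 28.2% of all genes), 4 higher and 22 lower against luminal SOX10 low cells (21.8% and 33.4%), and 9 higher and 7 lower in luminal SOX10 high against luminal SOX10 low cells (12.6% and 10.0%). Psmb8 was at 64.0 and 53.0 RPKM in basal SOX10 high, 176 and 182 RPKM in luminal SOX10 high and 267 and 261 RPKM in luminal SOX10 low cells. The type III receptor chain Ifnlr1 was at 4.04 and 4.27 RPKM in basal SOX10 high, 8.92 and 11.9 RPKM in luminal SOX10 high and 14.3 and 19.2 RPKM in luminal SOX10 low cells, lower in basal cells by 1.13 (limma adjusted p = 0.00455) and 1.77 (adjusted p = 4.32e-04). Ifnl3 was at 0 and 0.0720 RPKM in basal SOX10 high, 0.494 and 0.875 RPKM in luminal SOX10 high and 2.26 and 2.77 RPKM in luminal SOX10 low cells.

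Of the 11 receptor and signalling genes, 4 were lower in basal SOX10 high than in luminal SOX10 high cells, and 2 higher and 4 lower against luminal SOX10 low cells. Of 12 tested sensing genes, 1 was higher and 7 lower against luminal SOX10 high, and 2 higher and 8 lower against luminal SOX10 low cells (limma, adjusted p under 0.05). Beside both lists, 13.8% of all genes were higher and 28.2% lower against luminal SOX10 high, and 21.8% and 33.4% against luminal SOX10 low cells.

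In the C3-1-TAg tumours, no interferon-induced gene passed limma's test between SOX10 high and SOX10 low cells (adjusted p under 0.05), and the spread within each group was wide. Of 33 tested members (Ifit3 and Gbp6 were too low to test) 0 were higher and 0 lower, and at an unadjusted p under 0.05 the counts were 0 and 3. Of all 11948 genes tested, 0.0418% were called higher and 0% lower, and at the unadjusted threshold 1.65% were higher and 1.41% lower. The mean log2 level of all 35 members was lower in SOX10 high cells, with a median difference of -0.81 against -0.04 for all tested genes, but without SOX10 low replicate 1 the median was -0.28, with 30 members below and 5 above 0.

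Many members shared their extreme libraries. SOX10 low replicate 1 held the highest value of 31 of the 35 members and of 14.1% of all tested genes. SOX10 high replicate 2 held the lowest value of 27 members and of 9.62% of all tested genes. The median within-group SD of the members was 1.22 on the log2 scale, against 0.390 for all tested genes, and 33 of 35 members exceeded that value. In the normal table the medians were 0.305 for members and 0.271 for all tested genes, and in PY230 tumours 0.242 and 0.167. The highest library exceeded the lowest by at least 10-fold for 24 members.

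The highest library exceeded the lowest by 359-fold for Rsad2, 300-fold for AW112010, 269-fold for Oas2 and 101-fold for Irf7. Isg15 was at 30.5, 5.53, 42.1, 21.5 and 25.9 RPKM in SOX10 high cells, against 206, 55.4, 9.70 and 39.7 RPKM in SOX10 low cells. Ifit1 was at 2.76, 0.537, 7.57, 4.02 and 2.72 RPKM in SOX10 high cells, against 45.7, 5.68, 0.793 and 5.46 RPKM in SOX10 low cells. Irf7 was at 10.7, 1.99, 22.5, 10.1 and 5.78 RPKM in SOX10 high cells, against 200.2, 17.5, 2.41 and 34.1 RPKM in SOX10 low cells. In Isg15, Ifit1 and Irf7 SOX10 low replicate 1 was several times above every other library, SOX10 low replicate 3 was the next lowest after SOX10 high replicate 2, and the groups overlapped.

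Ifih1 was at 2.69, 1.51, 6.38, 2.51 and 2.62 RPKM in SOX10 high cells, against 24.7, 4.97, 1.57 and 6.29 RPKM in SOX10 low cells. Oasl2 was at 15.5, 3.51, 25.9, 11.7 and 9.90 RPKM in SOX10 high cells, against 74.0, 23.6, 5.55 and 20.8 RPKM in SOX10 low cells. Bst2 was at 84.9, 12.8, 83.3, 37.3 and 46.2 RPKM in SOX10 high cells, against 318, 115, 21.9 and 60.0 RPKM in SOX10 low cells. A sensor, a member of the synthetase family and a membrane restriction factor thus had the same highest and lowest libraries. Gbp2 spanned less, at 22.2, 10.8, 20.0, 15.7 and 17.6 RPKM in SOX10 high cells against 41.9, 39.2, 13.8 and 21.6 RPKM in SOX10 low cells, as did Gbp7, at 4.82, 2.03, 9.38, 2.81 and 3.65 RPKM against 8.46, 6.04, 2.11 and 4.39 RPKM.

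Irf1 stood apart from the other members. It was at 55.0, 78.1, 59.5, 88.6 and 68.4 RPKM in SOX10 high cells, against 78.8, 63.2, 68.6 and 70.3 RPKM in SOX10 low cells. The groups overlapped fully (difference -0.02, SE 0.19), and neither SOX10 high replicate 2 nor SOX10 low replicate 1 was extreme. Ifitm3 was at 188, 64.8, 148, 264 and 162 RPKM in SOX10 high cells, against 626, 249, 117 and 223 RPKM in SOX10 low cells, and Ifitm2 ranged only from 61.6 to 168 RPKM. AW112010, at 0.449, 0.106, 3.09, 3.05 and 2.20 RPKM in SOX10 high cells against 31.8, 1.44, 23.2 and 1.25 RPKM in SOX10 low cells, had SOX10 low replicate 3 as its second highest library.

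Ifitm1 was the only member without overlap, at 1.55, 0.446, 1.81, 1.53 and 1.50 RPKM in SOX10 high cells against 17.0, 4.25, 5.85 and 3.70 RPKM in SOX10 low cells. Among all tested genes, 0.477% had every SOX10 high library below every SOX10 low library and 0.586% had each of them above. The difference was -1.69 (SE 0.39, limma adjusted p = 0.65), and the two-sided exact permutation test over all 126 assignments gave p = 0.00794, the smallest these groups allow. Ddx58, at 16.0, 15.0, 9.52, 11.8 and 10.2 RPKM in SOX10 high cells against 23.7, 17.4, 16.9 and 15.5 RPKM in SOX10 low cells, gave a difference of -0.53 (exact permutation p = 0.0397). Stat2, at 11.5, 5.95, 15.9, 6.09 and 5.76 RPKM against 45.1, 21.3, 8.74 and 16.4 RPKM, gave -1.13 (exact permutation p = 0.0476). These exact p-values are not adjusted, 3 of the 35 members were below 0.05, and among all tested genes 1.46% were higher and 1.66% lower at that threshold. Without SOX10 low replicate 1 the difference was -1.26 for Ifitm1 (exact permutation p = 0.0179, the smallest allowed), -0.41 for Ddx58 (exact permutation p = 0.0714) and -0.74 for Stat2 (exact permutation p = 0.143).

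**Figure D5:**
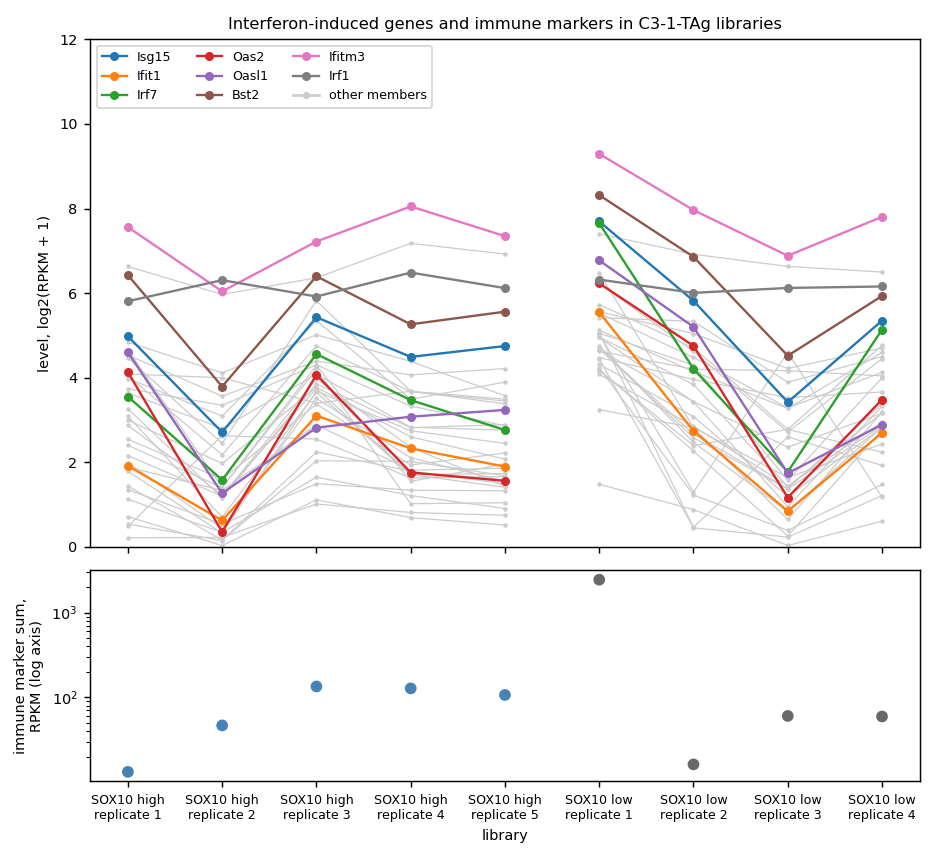
Upper panel: log2(RPKM + 1) of the 35 members in each of the 9 C3-1-TAg libraries, with 8 genes in colour and lines joining the values of 1 gene within a group. Lower panel: summed RPKM (log axis) of the immune markers. Most members peak in SOX10 low replicate 1, where the immune sum is 2449 RPKM, and are low in SOX10 high replicate 2 and SOX10 low replicate 3, while Irf1 is level.

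SOX10 low replicate 1 also held the most immune transcripts. The 17 immune markers summed to 13.2, 46.6, 134, 127 and 107 RPKM in the SOX10 high libraries, against 2449, 16.1, 60.3 and 59.4 RPKM in the SOX10 low libraries. In SOX10 low replicate 1 the macrophage genes C1qa and Lyz2 were at 624 and 631 RPKM and Ptprc was at 19.6 RPKM, against at most 0.868 RPKM for Ptprc elsewhere. Nkg7 was listed at 0 in every SOX10 low library and averaged 0.0194 RPKM in SOX10 high cells, so it does not set that library apart. The part of immune cells in that library's member levels was not tested.

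The remaining libraries also differed in members. SOX10 high replicate 3 had the highest immune sum of them, 134 RPKM, and the highest member median, 13.5 RPKM. SOX10 low replicate 2 had an immune sum of 16.1 RPKM and a median member level of 13.3 RPKM, while SOX10 low replicate 3, at an immune sum of 60.3 RPKM, had a member median of 2.41 RPKM. SOX10 high replicate 1 had the lowest immune sum, 13.2 RPKM, and a member median of 8.59 RPKM, against 1.64 RPKM in SOX10 high replicate 2. Oas2 was at 16.5, 0.275, 15.8, 2.38 and 1.95 RPKM in SOX10 high cells, against 74.1, 25.9, 1.24 and 10.2 RPKM in SOX10 low cells. Oasl1 was at 23.2, 1.40, 6.04, 7.42 and 8.42 RPKM against 108, 35.7, 2.34 and 6.41 RPKM, and Usp18 at 24.3, 1.64, 18.5, 1.92 and 2.88 RPKM against 32.2, 18.7, 1.96 and 15.0 RPKM. SOX10 high replicate 1 and SOX10 low replicate 2 were thus high together in these 3 genes. Over the tested genes, the deviations of these 2 libraries from their group means correlated at 0.824, and those of SOX10 high replicate 2 and SOX10 low replicate 3 at 0.697, while the tests above treat the 9 libraries as independent.

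Interferon transcripts were low in most C3-1-TAg libraries. Ifnb1 was at 0.490, 0.0350, 5.27, 1.96 and 1.84 RPKM in SOX10 high cells, against 20.5, 0.299, 0.167 and 0.933 RPKM in SOX10 low cells, so it too was highest in SOX10 low replicate 1, and Ifng was listed at 0 in all 9 libraries.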

How the data were processed

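RNA was measured in 23 libraries of about 2000 sorted cells each, made with SmartSeq2 and Nextera XT per the labels' protocols. These kits mark neither strand nor molecules, so overlapping genes on opposite strands cannot be told apart. The deposited values are RPKM per gene, in 3 tables that the authors made separately. Per the submitters' processing notes the build was mm9 and the tools were FastQC, HISAT2 2.0.5 and StringTie 1.3.1c; the annotation, read totals and sort markers were not given in the sources used here. RPKM carries no read counts, so depth stays unknown and intervals for counting error cannot be had. Every C3-1-TAg value above 0 is at least 2.001, so 2 was taken off those values, and 2200 symbols of that table were respelled to match the others.

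Groups follow the sample titles. They were compared within a table with limma 3.58.1 in R 4.3.3 on log2(RPKM + 1), 1 fit per table with all its groups, a trend in the variance and no replicate term. A gene was tested if 2 or more libraries (4 for C3-1-TAg) reached 1 RPKM, and calls used a Benjamini-Hochberg adjusted p under 0.05 over all tested genes. The fit was tested on simulated data. The 9 C3-1-TAg libraries also allowed two-sided exact permutation tests on single genes. Alternatives were a pseudocount of 0.1, no filter, quantile and median-of-ratios scaling, a replicate block, each library left out, and the C3-1-TAg values as deposited.

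The members and lists were chosen with earlier results of these data known. Values in every library are given for 14 members picked to cover each role and for the 5 called members with the largest change in each comparison.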

Additional observations from a re-analysis of the deposited data

Results flagged for a closer look

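Ifitm1 in the C3-1-TAg SOX10 high cells had 1 library far from the others: SOX10 high replicate 2, at 0.446 RPKM, lay below the other 4, which were at 1.50 to 1.81 RPKM. Its gap to the nearest library was 0.825 of the group's whole range on the log2(RPKM + 1) scale. Of 70 groups examined in this way 1 was found, and chance alone marks about 1 in 20. That library held the lowest value of 27 of the 35 members.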

How the results depend on the processing

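No call on a member in a comparison (156 in all) turned its direction under any alternative run. Calls lost numbered 183 of 603 with single libraries left out, 23 with no filter, 14 with quantile normalization, 13 with median-of-ratios scaling, 7 with a pseudocount of 0.1 and 4 with the replicate block. Mature luminal cells against luminal progenitors had 8 members called, and 5 with a pseudocount of 0.1 or with no filter. PY230 basal SOX10 high against luminal SOX10 high cells had 22, and 14 with median-of-ratios scaling. Luminal SOX10 high against luminal SOX10 low cells had 11, and 5 with no filter. The cause was not tested. Leaving out 1 library gave 10 to 24 members called in adult basal, 17 to 22 in mature luminal and 15 to 20 in luminal progenitor cells against fMaSC. Among adult cells it gave 7 to 23 between basal and mature luminal cells, 4 to 16 between basal cells and luminal progenitors and 2 to 4 between mature luminal cells and luminal progenitors. In PY230 tumours it gave 10 to 23 in basal SOX10 high against luminal SOX10 high, 15 to 20 against luminal SOX10 low, and 1 to 14 between the luminal groups, and in C3-1-TAg tumours 0 to 0. With the replicate number as a block the counts were 18, 27 and 29 against fMaSC (basal, mature luminal, luminal progenitor), 18, 8 and 9 among adult cells, 21, 23 and 14 in PY230 tumours and 0 in C3-1-TAg tumours. Deviations of same-numbered libraries correlated at 3.86e-04 to 0.221 in normal, -0.265 to 0.295 in PY230 and -0.337 to 0.203 in C3-1-TAg cells, where 1 of 9 libraries correlated best with its own number. Not every pair was above 0.1, so the numbers are not shown to pair. Depth is unknown, and 2 libraries a group limit precision in the normal and PY230 tables.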
